A study of Mus musculus with 2 samples.

Results

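Chemokines are small secreted proteins, and their receptors span the cell membrane. The genes described here are the protein-coding mouse genes whose symbol begins with Ccl, Cxcl, Ccr or Cxcr and a number, together with Cx3cl1, Cx3cr1, Xcl1, Xcr1 and the Ackr genes. By that rule, which used no measured value and leaves out 3 ligand genes that are not analysed here, 57 genes were taken of 43346 in the tables. They comprised 21 CC ligands, 11 CXC ligands, 2 ligands of the CX3C and XC type, 19 signalling receptors and 4 atypical receptors.

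The tissue was kidney of C57BL/6J mice, an inbred laboratory strain, aged 8 weeks. There was 1 group, adult kidney, with 2 libraries that the labels number as biological replicates 1 and 2. No treatment or genotype is given, the health state is labelled unknown, and each sample pooled tissue of male and female littermates. Both libraries carry 1 donor label, so every SD here measures only the spread between these libraries, which may be technical. The exact binomial p-values cover counting error only, and no p-value here compares conditions. Whole tissue was used, and in such bulk RNA fewer cells of a type and less RNA per cell cannot be told apart.

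Chemokines attract cells along a gradient, mostly white blood cells, by binding receptors that signal through inhibitory G proteins. Homeostatic members are made constantly and position cells within tissues, whereas inflammatory members are switched on by cytokines or injury. Atypical receptors bind chemokines without G protein signalling and take them up or carry them across cells.

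The gene tables hold 67252609 expected counts in replicate 1 and 87330097 in replicate 2, an expected count being an estimate of the fragments from a gene. The 57 genes held 85679 counts in replicate 1 and 95028 in replicate 2, which is 0.127% and 0.109% of each total. Markers of the kidney tubule were present in both libraries, with a summed level of 10745 TPM in replicate 1 and 7355 in replicate 2 over 7 genes, led by the phosphate transporter gene Slc34a1 (5821 and 4317 TPM). TPM scales counts to gene length and to a common sum per library, so levels can be compared between genes. The libraries also differed in other tissues. The 4 adrenal cortex markers, led by Cyp21a1, summed to 36.0 TPM in replicate 1 and 0.55 in replicate 2, and the 5 skeletal muscle markers, led by Acta1, to 2.25 TPM in replicate 1 and 714 in replicate 2. Genes detected in both libraries had a median log2 ratio of replicate 1 over replicate 2 of 0.19 on the TPM scale. On counts scaled by TMM (trimmed mean of M values), a method that centres most genes, that median was -0.01.

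A gene was called detected at 1 TPM or more in both libraries. By that measure 22 of the 57 genes (38.6%) were detected, against 57.2% of the 21474 protein-coding genes and 30.2% of all genes. A further 8 of the 57 passed in 1 library only, against 601 of the 21474 protein-coding genes. The median of the mean levels was 0.885 TPM over the 57 genes and 2.79 TPM over protein-coding genes. Mean levels ran from 0 to 247 TPM. Of the 57 genes 8 averaged 10 TPM or more, against 7129 of the 21474 protein-coding genes. Under 0.1 TPM were 10 of the 57, against 6117 protein-coding genes.

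The bulk of the signal lay in a few genes. Cxcl12, Ackr3, Cx3cl1, Cxcl16 and Cxcl14, the 5 highest, held 85.6% of the summed TPM of the 57 genes in replicate 1 and 74.6% in replicate 2, a mean of 80.1% ± 7.79 (SD, n = 2). CXC ligands held 56.3% in replicate 1 and 51.7% in replicate 2, and CC ligands 9.84% and 16.7%. Atypical receptors held 18.3% in replicate 1 and 13.8% in replicate 2, almost all of it from Ackr3. The 19 signalling receptors held only 2.86% in replicate 1 and 6.16% in replicate 2.

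**Figure D1:**
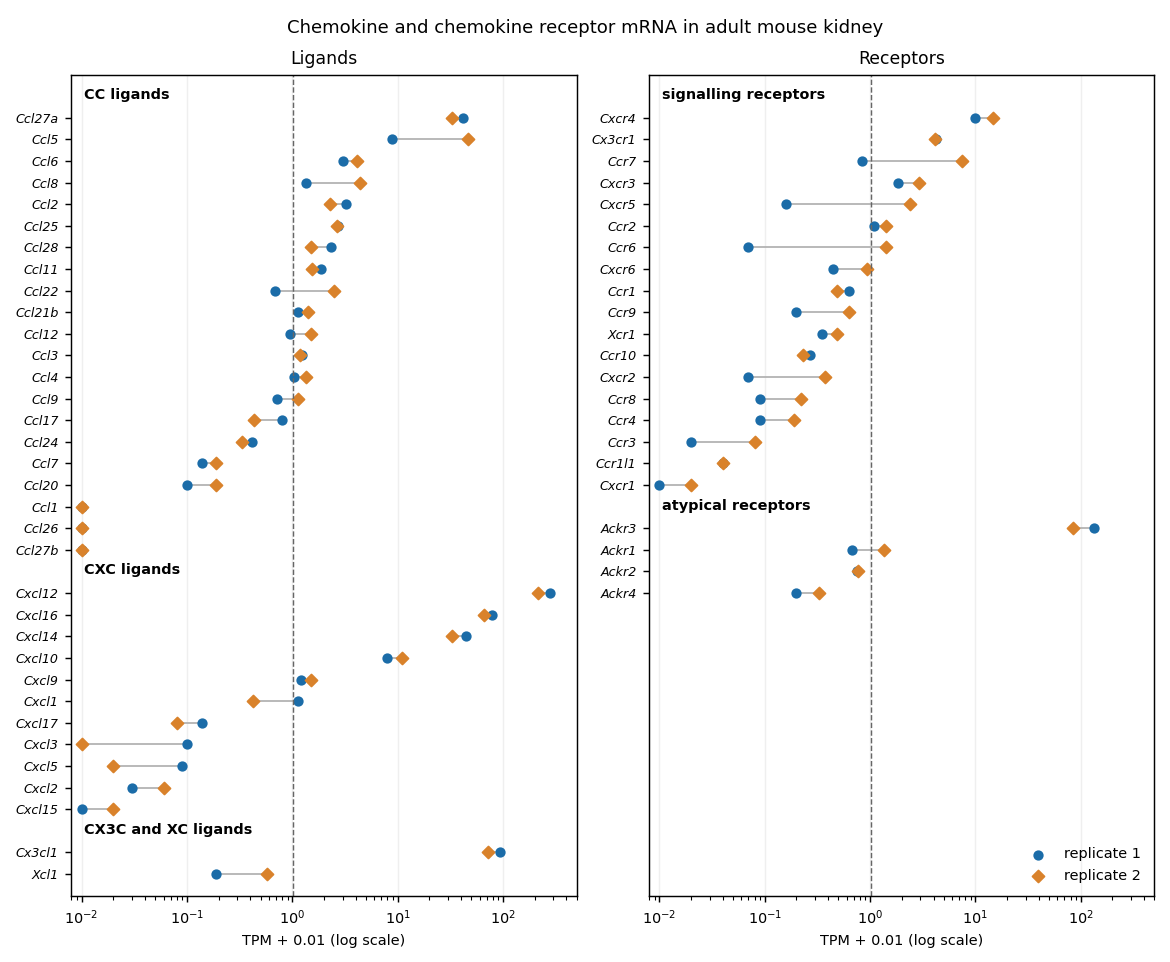
Level of 56 of the 57 genes in TPM (horizontal log axis, 0.01 added so that 0 can be drawn), by class, with 1 circle for replicate 1 and 1 diamond for replicate 2. The dashed line marks 1 TPM, and Cxcl12, Ackr3, Cx3cl1 and Cxcl16 lie farthest to the right in both libraries, while long grey lines mark genes such as Ccl5, Ccr7, Cxcr5 and Ccr6 whose libraries differ.

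Among CXC ligands, Cxcl12 was the highest. It encodes the ligand of Cxcr4, known for retaining blood cell precursors in marrow and for guiding vessel growth, including that of the kidney. Cxcl12 (ENSMUSG00000061353.7, GRCm38 chromosome 6, 117168535 to 117181367, plus strand) stood at 278 TPM in replicate 1 and 216 in replicate 2, on 32276 and 35629 counts. Its mean of 247 ± 44.2 TPM (SD, n = 2) placed it at rank 464 among protein-coding genes. Cxcl16, which encodes a membrane-bound ligand that also acts as a scavenger receptor for lipids, had 78.9 TPM in replicate 1 and 65.8 in replicate 2, a mean of 72.4 ± 9.26. Cxcl14, whose product is known as a homeostatic ligand of epithelia, had 44.1 TPM in replicate 1 and 32.6 in replicate 2, a mean of 38.4 ± 8.16. For all 3 genes replicate 1 was the higher library on the TPM scale.

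The interferon-induced ligands of Cxcr3 had smaller levels. Cxcl10 had 7.85 TPM in replicate 1 and 10.9 in replicate 2, a mean of 9.38 ± 2.17 (SD, n = 2), and its neighbour Cxcl9 had 1.21 and 1.48, a mean of 1.34 ± 0.191. Both lie within 0.0275 Mb of chromosome 5. The 6 other CXC ligands all missed the detection level. Cxcl1, a neutrophil attractant, came nearest among them, at 1.12 TPM in replicate 1 and 0.41 in replicate 2. Cxcl17, a ligand of mucosal surfaces, had 0.13 TPM in replicate 1 and 0.07 in replicate 2. Cxcl3 and Cxcl5, which also act on neutrophils, each averaged 0.045 TPM, with Cxcl3 at 0 in replicate 2. The neutrophil-attracting group Cxcl5, Cxcl3, Cxcl15, Cxcl1 and Cxcl2 lies together on chromosome 5 (90759360 to 90905938), and its 5 genes summed to 1.31 TPM in replicate 1 and 0.48 in replicate 2.

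The sequence before the start of transcription is shown for 4 CXC ligands that span this range, the abundant homeostatic Cxcl12 and the inducible Cxcl10, Cxcl1 and Cxcl2, to set the elements that these upstream stretches hold beside the levels. Each is the 220 bases upstream of the annotated start, 5′ to 3′ on the gene's strand, from RefSeq on GRCm38.p6. They lie at chr6:117168315-117168534 (plus strand) for Cxcl12, chr5:92348890-92349109 (minus strand) for Cxcl10, chr5:90891025-90891244 (plus strand) for Cxcl1 and chr5:90903679-90903898 (plus strand) for Cxcl2. Capitals mark matches to the kappa B element, bound by NF-kappa B, and to the interferon-stimulated response element, searched as GAAANNGAAA, in both cases on both strands with overlapping matches joined.
Cxcl12: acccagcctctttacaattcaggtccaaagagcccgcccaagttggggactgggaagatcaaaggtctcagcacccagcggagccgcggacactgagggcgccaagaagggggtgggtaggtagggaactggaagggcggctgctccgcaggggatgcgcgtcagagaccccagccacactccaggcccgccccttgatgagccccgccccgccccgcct
Cxcl10: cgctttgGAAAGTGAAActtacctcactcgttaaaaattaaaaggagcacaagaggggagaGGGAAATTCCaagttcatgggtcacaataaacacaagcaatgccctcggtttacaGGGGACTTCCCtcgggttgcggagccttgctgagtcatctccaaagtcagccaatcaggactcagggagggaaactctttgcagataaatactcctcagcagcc
Cxcl1: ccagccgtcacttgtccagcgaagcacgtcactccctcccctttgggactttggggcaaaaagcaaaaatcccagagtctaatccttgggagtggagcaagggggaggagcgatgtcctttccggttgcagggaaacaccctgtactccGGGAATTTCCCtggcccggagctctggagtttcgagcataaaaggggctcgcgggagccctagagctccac
Cxcl2: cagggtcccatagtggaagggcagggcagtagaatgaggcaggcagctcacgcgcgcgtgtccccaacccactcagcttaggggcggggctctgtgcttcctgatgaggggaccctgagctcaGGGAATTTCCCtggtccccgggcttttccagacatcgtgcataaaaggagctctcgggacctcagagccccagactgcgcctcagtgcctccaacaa
The stretch of Cxcl12, at 247 TPM, holds no match to either element. That of Cxcl10 holds kappa B matches at 159 to 150 and at 104 to 94 bases before the start, and an interferon-stimulated response element match at 213 to 204 bases before it. Cxcl1 has a kappa B match at 71 to 61 bases and Cxcl2 at 97 to 87 bases before the start, and both genes averaged under 1 TPM.

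Promoters were in the table for 43 of the 57 genes. Over the 250 bases before the start, 11 of the 43 (25.6%) held a kappa B match, and 2225 of 27025 genes in the table (8.23%) did. Of the 11, Cxcl10 was the one detected gene among 17 detected genes with a promoter. The interferon-stimulated response element occurred in 2 of the 43 (4.65%), Cxcl10 and Cxcl14, and in 936 of all 27025 (3.46%). A match is a run of letters and was not tested for binding.

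Cx3cl1, the CX3C ligand, encodes a chemokine tethered to the membrane by a mucin stalk, from which it can be shed. Its level was 92.7 TPM in replicate 1 and 72.5 in replicate 2, on 15394 and 16676 counts (chromosome 8, 94772009 to 94782427). Its mean was 82.6 ± 14.3 TPM (SD, n = 2), and it stood above Cxcl16 in each library although the ranges of both genes overlapped. Xcl1, a ligand that T and natural killer cells make for Xcr1 on dendritic cells, had 0.18 TPM in replicate 1 and 0.57 in replicate 2, from 3 and 14 counts.

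Of 21 CC ligands 11 were detected, with a median level of 1.22 TPM over the class. Ccl27a, an epithelial chemokine of the skin whose product acts on Ccr10, had the highest mean of them, at 41.6 TPM in replicate 1 and 32.6 in replicate 2, a mean of 37.1 ± 6.36 (SD, n = 2), although Ccl5 was above it in replicate 2. That mean rests on 960 counts in replicate 1 and 1013 in replicate 2, fewer than for Cxcl14 at a like TPM, and most of it came from noncoding isoforms described further on. Ccl5, an attractant for T cells, was the least even of the abundant genes. It stood at 8.83 TPM in replicate 1 and 46.6 in replicate 2, so that its mean of 27.7 ± 26.7 describes neither library.

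Ccl6, Ccl2, Ccl12, Ccl3, Ccl4 and Ccl8, ligands known from monocytes, macrophages and inflamed tissue, each averaged between 1 and 5 TPM. Ccl6 had 3.02 TPM in replicate 1 and 4.08 in replicate 2. Ccl2, the main ligand that draws monocytes through Ccr2, had 3.20 TPM in replicate 1 and 2.27 in replicate 2. Ccl12, a further mouse ligand of Ccr2, had 0.95 and 1.49 TPM. For Ccl2 replicate 1 was the higher library, and for Ccl6 and Ccl12 replicate 2 was. Ccl3 and Ccl4, inflammatory ligands of macrophages and T cells, stood at 1.23 and 1.02 TPM in replicate 1 and at 1.18 and 1.33 in replicate 2, and the means of 1.20 ± 0.0354 and 1.18 ± 0.219 (SD, n = 2) did not differ beyond their spread. Ccl8 had 1.34 TPM in replicate 1 and 4.42 in replicate 2, which is a wide gap beside that of Ccl2.

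Ligands known from epithelia and barrier tissues were also present. Ccl25, the ligand of Ccr9 in thymus and small intestine, had 2.69 TPM in replicate 1 and 2.66 in replicate 2. On the TPM scale that was the most even pair among detected CC ligands. On TMM-scaled counts its log2 ratio of replicate 1 over replicate 2 was -0.15, and Ccl3 (-0.13) and Ccl11 (0.10) were more even. Ccl28, a mucosal ligand of Ccr10, had 2.33 TPM in replicate 1 and 1.5 in replicate 2. Ccl11, or eotaxin, which acts on eosinophils through Ccr3, had 1.87 TPM in replicate 1 and 1.53 in replicate 2. Ccl22, a ligand of Ccr4 made by dendritic cells, was less even, with 0.67 TPM in replicate 1 and 2.48 in replicate 2. Ccl21b, a ligand of Ccr7, had 1.12 TPM in replicate 1 and 1.40 in replicate 2. Its 11.9 and 21.6 expected counts are uncertain, since the deposited SDs of these estimates were 9.64 and 14.1 counts, and near-identical Ccl21 copies lie in the same region.

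The remaining CC ligands averaged under 1 TPM, led by Ccl9 (0.70 TPM in replicate 1 and 1.13 in replicate 2), Ccl17 (0.79 and 0.42) and Ccl24 (0.40 and 0.32). Ccl17 shares the receptor Ccr4 with Ccl22, and Ccl24 is a further eotaxin. Ccl1, Ccl26 and Ccl27b had no count in either library, which allows up to 3 counts, or 0.0446 CPM (counts scaled to library size) in replicate 1 and 0.0344 in replicate 2. These limits cover counting error only. Ccl27b is a near-copy of Ccl27a, and its count was uncertain too, so reads of the pair may have been shared out between them.

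Of the 19 signalling receptors 4 were detected, Cxcr4, Cx3cr1, Cxcr3 and Ccr2. Cxcr4, the receptor of Cxcl12, was the highest, at 9.89 TPM in replicate 1 and 14.8 in replicate 2, a mean of 12.3 ± 3.46 (SD, n = 2; chromosome 1, 128588199 to 128592293, minus strand). Cx3cr1, the receptor of Cx3cl1 and a marker of resident macrophages of the kidney, followed at 4.24 TPM in replicate 1 and 4.08 in replicate 2, a mean of 4.16 ± 0.113. Cxcr3, the receptor of Cxcl9 and Cxcl10 on activated T cells, had 1.81 TPM in replicate 1 and 2.88 in replicate 2. Ccr2, the receptor that monocytes follow to Ccl2, had 1.08 and 1.40 TPM.

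Ccr7, Cxcr5 and Ccr6, receptors of lymphocytes, had less even levels than the 4 detected receptors. Ccr7, which leads T cells and dendritic cells into lymph nodes, had 0.83 TPM in replicate 1 and 7.44 in replicate 2. Cxcr5, which leads B cells into follicles, had 0.15 TPM in replicate 1 and 2.36 in replicate 2. Ccr6, a receptor of B cells and of interleukin-17 T cells, had 0.06 TPM in replicate 1 and 1.42 in replicate 2. In each case replicate 2 was the higher library, and none of the 3 passed the detection level in replicate 1.

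The other signalling receptors averaged under 1 TPM, among them Cxcr6 (0.43 TPM in replicate 1 and 0.93 in replicate 2) and Ccr1 (0.62 and 0.48), a receptor of several inflammatory CC ligands. Cxcr1, a neutrophil receptor, had no count in replicate 1 and 1 in replicate 2. Over the whole family 6 groups of 3 or more genes, joined at gaps of up to 500 kb, held 30 of the 57 genes. The group of Ccl5, Ccl9, Ccl6, Ccl3 and Ccl4 on chromosome 11 (83525778 to 83664683) had 4 detected genes of 5 and summed to 14.8 TPM in replicate 1 and 54.3 in replicate 2, a gap that came mostly from Ccl5.

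Atypical receptors were dominated by Ackr3, which takes up Cxcl12 and so shapes its gradient. Ackr3 (chromosome 1, 90203980 to 90216751, plus strand) stood at 132 TPM in replicate 1 and 85.0 in replicate 2, a mean of 109 ± 33.5 (SD, n = 2) and rank 1096 among protein-coding genes. Its level exceeded that of Cxcr4 in each library. Ackr1, the Duffy receptor of red cells and venules, had 0.67 TPM in replicate 1 and 1.34 in replicate 2. Ackr2, a scavenger of inflammatory CC ligands, had 0.74 and 0.75 TPM, and Ackr4, a scavenger of homeostatic CC ligands, had 0.19 and 0.32. In the annotation 25.7% of the exon bases of Ackr1 also belong to Cadm3 on the same strand (1.41 TPM in replicate 1 and 1.58 in replicate 2), so reads there could belong to either gene. Cxcl16 shares 18.3% of its exon bases with Zmynd15 on the opposite strand (9.54 and 7.66 TPM), and Ackr4 shares 8.90% with Acad11 (108 and 89.7 TPM), also on the opposite strand. Cxcl10 shares 5.91% with Art3 on the opposite strand, and Xcl1 18.7% with Gm20743. The sources used here do not say whether the counting used strand, without which reads of such overlaps cannot be told apart.

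Ligands and receptors were then set side by side as 40 known pairs of 29 ligands and 20 receptors. Both partners were detected in 6 pairs, Cxcl12 with Cxcr4, Cxcl12 with Ackr3, Cx3cl1 with Cx3cr1, Ccl2 with Ccr2, and Cxcl9 and Cxcl10 each with Cxcr3. In 19 pairs the ligand alone was detected, in 2 the receptor alone, and in 13 neither. By the level of the ligand, Cxcl16 was the highest case of a ligand alone, at 78.9 TPM in replicate 1 and 65.8 in replicate 2 against 0.43 and 0.93 TPM for its receptor Cxcr6. Ccl27a likewise stood at 41.6 and 32.6 TPM against 0.26 and 0.22 TPM for Ccr10. Whole-tissue levels do not tell which cells carry either partner.

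**Figure D2:**
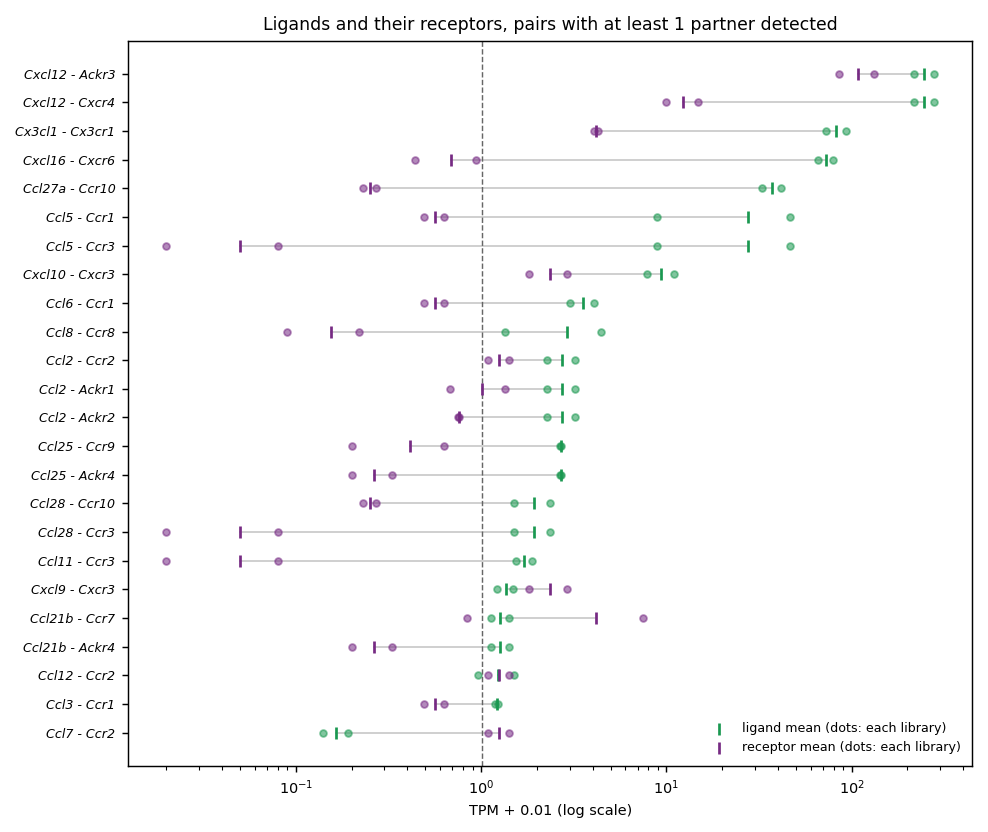
Levels in TPM (log axis, 0.01 added) of ligand and receptor for 24 of the 27 pairs with at least 1 partner detected (the others have a receptor that is not drawn), ordered by the mean level of the ligand, with dots for each library and bars for the mean. The receptor lies left of its ligand in most pairs, with Cxcl9 and Cxcr3, Ccl21b and Ccr7, Ccl12 and Ccr2, and Ccl7 and Ccr2 as the exceptions.

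Transcript tables split each gene into isoforms. Of the 22 detected genes, 13 have more than 1 annotated isoform and 9 had more than 1 at 5% or more of the gene's TPM in both libraries. Coding isoforms made up 90% or more of TPM in both libraries for 17 of the 22. Cxcl12 was made mainly as Cxcl12-202, of 89 codons, the form known as alpha, with 70.2% of the gene in replicate 1 and 66.1% in replicate 2. Cxcl12-203, of 93 codons and known as beta, held 23.5% in replicate 1 and 27.2% in replicate 2. Cxcl12-201, of 119 codons and known as gamma, held 4.75% and 4.85%. The order of the 3 forms was the same in both libraries.

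Ccl27a, Cxcl16, Ccl6, Ccl25 and Cxcl10 had larger parts in isoforms not annotated as coding. Ccl27a was the one detected gene with under 50% of TPM in coding isoforms in both libraries, at 10.4% in replicate 1 and 26.2% in replicate 2. Its retained-intron isoforms Ccl27a-211 (46.5% in replicate 1 and 37.6% in replicate 2), Ccl27a-210 (28.3% and 21.4%) and Ccl27a-212 (7.87% and 9.31%) carried most of it. The coding isoforms of Ccl27a thus summed to 4.31 TPM in replicate 1 and 8.54 in replicate 2, against 41.6 and 32.6 TPM for the whole gene. For Cxcl16 the coding isoform Cxcl16-201 held 71.8% in replicate 1 and 73.2% in replicate 2, and Cxcl16-202, annotated as a target of nonsense-mediated decay, held 26.8% and 24.8%. Ccl6 had 50.5% in replicate 1 and 36.0% in replicate 2 in the retained-intron isoform Ccl6-202, with the coding Ccl6-201 at 49.5% and 62.7%. Cxcl10-203, a retained-intron form, held 8.21% in replicate 1 and 21.6% in replicate 2, and the coding Cxcl10-201 held 90.9% and 77.4%.

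The detected receptors had coding isoforms only. Cxcr4 was split between Cxcr4-201, of 359 codons, with 58.6% in replicate 1 and 41.5% in replicate 2, and Cxcr4-202, of 272 codons, with 41.4% and 58.5%. The leading isoform of Cxcr4 by TPM thus differed between the libraries. By expected counts Cxcr4-201 led in both, with 498 against 153 for Cxcr4-202 in replicate 1 and 735 against 454 in replicate 2. Cx3cr1 was mostly Cx3cr1-202 (92.0% in replicate 1 and 93.8% in replicate 2), and Cx3cr1-201 (7.98% and 6.20%) encodes the same number of codons, 354. For Ccr2 the leading isoforms were Ccr2-204 (50.6% in replicate 1 and 39.4% in replicate 2) and Ccr2-202 (38.6% and 54.9%). The ligand gene Ccl25 was spread over 6 isoforms at 5% or more in both libraries, led by Ccl25-201 with 39.1% in replicate 1 and 35.1% in replicate 2. Coding isoforms of Ccl25 held 64.7% of its TPM in replicate 1 and 62.5% in replicate 2. Beside Ccl25-201, every Ccl25 isoform rested on under 25 counts in each library, so their order is not resolved.

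**Figure D3:**
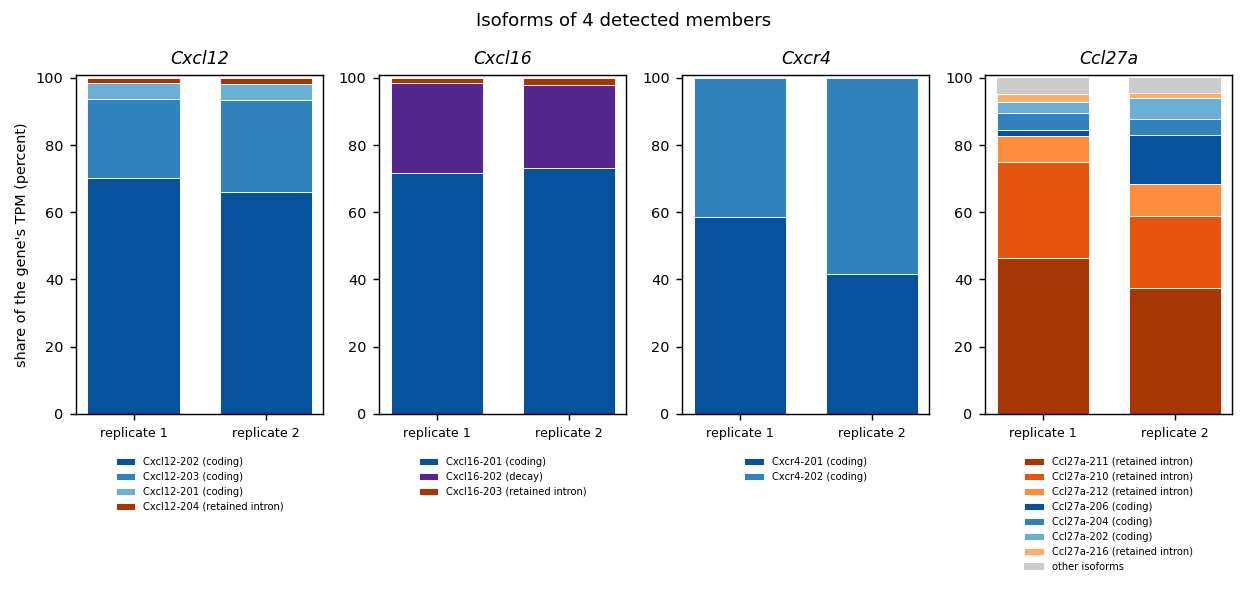
Share of each gene's TPM by isoform (percent, stacked bars, replicate 1 left of replicate 2) for Cxcl12, Cxcl16, Cxcr4 and Ccl27a, with blue for coding, orange to brown for retained-intron, purple for decay-annotated and grey for other isoforms. Ccl27a is mostly retained-intron isoforms in both libraries, and the leading Cxcr4 isoform by TPM, though not by expected counts, differs between them.

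The other question these data allow is how evenly the family was measured in both libraries. Of 47 genes with 10 or more counts in sum, 14 (29.8%) differed between the libraries, against 8.21% of all 18723 genes tested. A call needed a Benjamini-Hochberg adjusted p below 0.05 in a two-sided exact binomial test on TMM-scaled counts, over all genes tested, and a log2 ratio of at least 1 in size. Only Cxcl1 was higher in replicate 1 (all genes, 2.59%), and 13 were lower in replicate 1 (all genes, 5.62%). The median log2 ratio of replicate 1 over replicate 2 was -0.58 over the 47 genes and -0.02 over all genes tested. These shares of all genes take every count level together, and the spread of all genes tested was wider at low counts. Ccl8, Ccr9, Ackr1, Cxcr6, Ccr4, Ccr3, Xcl1 and Cxcl1, all called, lay between the 5th and 95th percentile of all genes at like counts. What is compared here is the reads of these libraries, not conditions, and the test covers counting error only. With the common dispersion of the table (a coefficient of variation of 0.227 between libraries), the edgeR exact test called 8 (all genes, 2.53%), all lower in replicate 1 and all among the 14. That dispersion was estimated from these same libraries, taken as replicates of 1 group. The edgeR calls here and below thus rank genes against the spread of this comparison and are no independent check. With spike-in totals as the scale, 11 were called (all genes, 15.3%), 3 higher in replicate 1 (Cxcl1, Ackr3 and Ccl28) and 8 lower, but that scale moved the median of all genes tested to 0.60.

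Of 17 signalling receptors tested 8 were called, all lower in replicate 1 (all genes, 5.62%), and the median log2 ratio of the 17 was -1.28. The classes differ in size. The share was 3 of 18 for CC ligands, 1 of 6 for CXC ligands, 1 of 2 for CX3C and XC ligands and 1 of 4 for atypical receptors. Over all genes tested 8.21% were called in either direction. Ccr7 had 79 counts in replicate 1 and 986 in replicate 2, which is 10.1-fold lower in replicate 1 (95% interval 8.05 to 12.9, exact binomial adjusted p = 7.74e-160, edgeR exact test adjusted p = 5.28e-08). Cxcr5 had 20 counts in replicate 1 and 424 in replicate 2, 17.2-fold lower (11.0 to 28.5, adjusted p = 4.01e-81 and, in edgeR, 9.41e-10 by exact tests). Ccr6 had 3 counts in replicate 1 and 136 in replicate 2, a ratio of 36.8 with a wide interval of 12.3 to 181. All 3 are homing receptors of lymphocytes, as given above.

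Ccr9 and Cxcr2 were the other receptors that both tests called. Ccr9, the gut-homing receptor that binds Ccl25, was 3.65-fold lower in replicate 1 (28 counts in replicate 1 and 126 in replicate 2, interval 2.41 to 5.72, edgeR exact test adjusted p = 0.0351). Cxcr2, the main receptor of neutrophils, was 6.61-fold lower (7 and 57 counts, interval 3.01 to 17.2, edgeR exact test adjusted p = 0.0073). Cxcr6, Ccr4 and Ccr3 were called by the binomial test and not by edgeR. Cxcr6, found on tissue T cells, was 2.44-fold lower in replicate 1 (39 and 117 counts, exact binomial adjusted p = 1.47e-06, edgeR exact test adjusted p = 0.416). Ccr4, found on helper and regulatory T cells, had 11 counts in replicate 1 and 35 in replicate 2 (edgeR exact test adjusted p = 0.673), and Ccr3, the eosinophil receptor, had 2 and 16 (0.253). The atypical receptor Ackr1 was 2.27-fold lower in replicate 1 (34 and 95 counts), again by the binomial test alone (edgeR exact test adjusted p = 0.595).

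Ccl5, Ccl22, Ccl8 and Xcl1 were the ligands that were lower in replicate 1, and Cxcl1 was higher. Ccl5 had 156 counts in replicate 1 and 1173 in replicate 2, 6.10-fold lower in replicate 1 (interval 5.16 to 7.26, exact binomial adjusted p = 2.22e-148, edgeR exact test adjusted p = 3e-05). Ccl22 was 4.19-fold lower (72 and 372 counts, interval 3.25 to 5.48), and Ccl8 3.84-fold lower (22 and 104 counts, interval 2.41 to 6.39). Both were also called by the edgeR exact test, with adjusted p of 0.00359 for Ccl22 and 0.0399 for Ccl8. Xcl1, with 3 counts in replicate 1 and 14 in replicate 2, had a ratio of 3.79 (interval 1.06 to 20.6) and an exact binomial adjusted p of 0.0481, against 0.732 in edgeR. Cxcl1 was 2.41-fold higher in replicate 1, with 45 counts against 23 in replicate 2 (exact binomial adjusted p = 0.00128, edgeR exact test adjusted p = 0.586). The 6 most abundant genes were not called, and their log2 ratios lay between 0.07 for Cxcl16 and 0.46 for Ackr3.

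**Figure D4:**
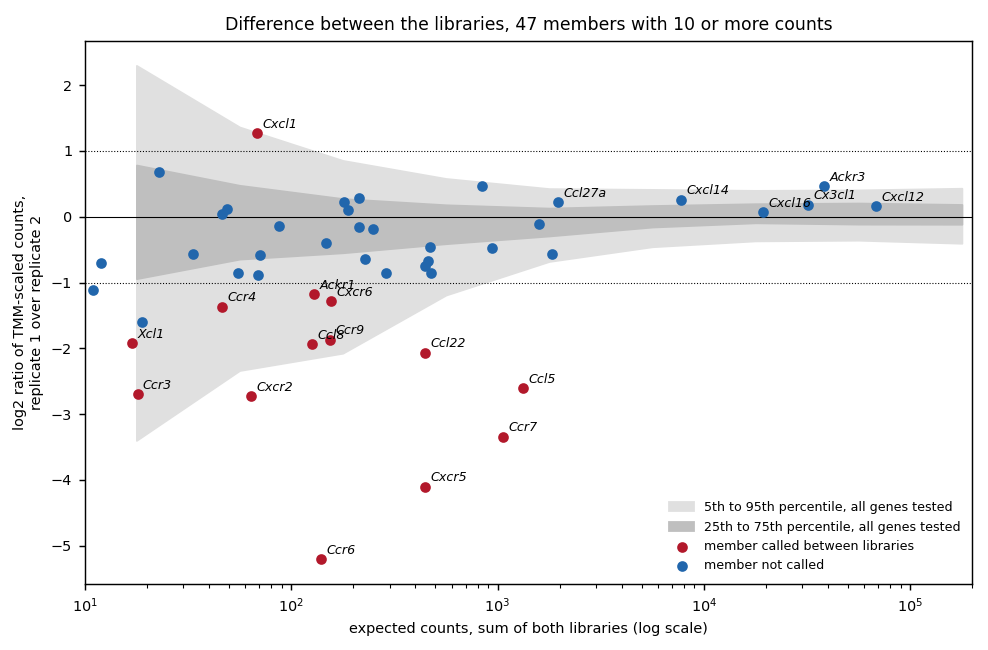
Log2 ratio of TMM-scaled counts, replicate 1 over replicate 2 (vertical axis), against the summed expected counts (horizontal log axis) for the 47 genes tested, with called genes in red and the others in blue, and grey bands for the spread of all genes tested at like counts. Ccr7, Cxcr5, Ccr6, Cxcr2, Ccl5 and Ccl22 lie below the band that holds the 5th to 95th percentile, and of the abundant genes Cxcl12, Cx3cl1, Cxcl16 and Cxcl14 lie within the band while Ackr3, at 0.46, lies above it.

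Markers of lymphocytes and lymph nodes moved in the same direction. Their calls are those of the exact binomial test, and the edgeR exact test kept all 6 B cell markers, 6 of 7 T cell markers (not Thy1) and 4 of 5 lymph node markers (not Tnfsf11). All 6 B cell markers were lower in replicate 1, with a summed level of 4.56 TPM in replicate 1 and 43.9 in replicate 2. Cd79a, a part of the B cell receptor, led them at 1.55 TPM in replicate 1 and 18.0 in replicate 2, with Cd79b, Cd22, Blk and Ms4a1 also on the list. The 7 T cell markers were all lower too, with 8.84 TPM in replicate 1 and 31.3 in replicate 2 in sum, led by Thy1 and followed by Lck, Cd4, Cd8a, Cd3d, Cd3e and Cd3g. Of 5 natural killer cell markers 4 were lower (Nkg7, Prf1, Gzma and Klrb1c), of which the edgeR exact test kept Nkg7, and the list summed to 2.44 TPM in replicate 1 and 7.18 in replicate 2. No B cell or T cell marker was at 0 in either library, so these lists were low in replicate 1 rather than absent.

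The list set up for lymph node stroma and vessels summed to 0.49 TPM in replicate 1 and 82.5 in replicate 2, and all 5 genes were lower in replicate 1. Most of the sum in replicate 2 came from Glycam1 alone (78.3 TPM there). Which cells made these 5 genes, lymphocytes among them, was not tested. Glycam1, made by the high endothelial venules through which lymphocytes enter nodes, had no count in replicate 1 and 2505 in replicate 2. Fcer2a, Cr2, Madcam1 and Tnfsf11 were the other 4, at 0.01 to 0.28 TPM in replicate 1 and 0.10 to 2.20 in replicate 2. Of 4 neutrophil markers tested 3 were lower in replicate 1 (Retnlg, S100a8 and S100a9), of which the edgeR exact test kept Retnlg. Ly6g, with 0 counts in replicate 1 and 3 in replicate 2, had too few to be tested. Neutrophil markers summed to 1.70 TPM in replicate 1 and 4.86 in replicate 2, led by Csf3r. The part of these cells in the differences of Ccr7, Cxcr5, Ccl5 and the other called genes was not tested.

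Markers of other cell types of the kidney and blood had fewer calls, in contrast to the adrenal cortex and skeletal muscle markers given above. Macrophage markers summed to 138 TPM in replicate 1 and 135 in replicate 2, led by C1qb, with 1 of 7 (Mrc1) lower in replicate 1. None of 6 endothelial markers was called, at a sum of 659 and 554 TPM led by Plvap. Monocyte markers summed to 42.5 TPM in replicate 1 and 61.0 in replicate 2, led by Plac8, with Ly6c2 lower in replicate 1, and dendritic cell markers to 8.43 and 7.80, led by Zbtb46, with Flt3 lower. Lymphatic endothelium (13.1 TPM in replicate 1 and 11.6 in replicate 2) was led by Flt4 and had Lyve1 lower, and stroma and pericytes (562 and 357 TPM) were led by Ren1 and had Acta2 higher in replicate 1. Of the genes just named as lower or higher, the edgeR exact test kept Ly6c2 and Lyve1 and not Mrc1, Flt3 or Acta2. No marker of podocytes (led by Podxl), platelets (Itga2b), red blood cells (Hba-a2) or the kidney tubule was called.

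**Figure D5:**
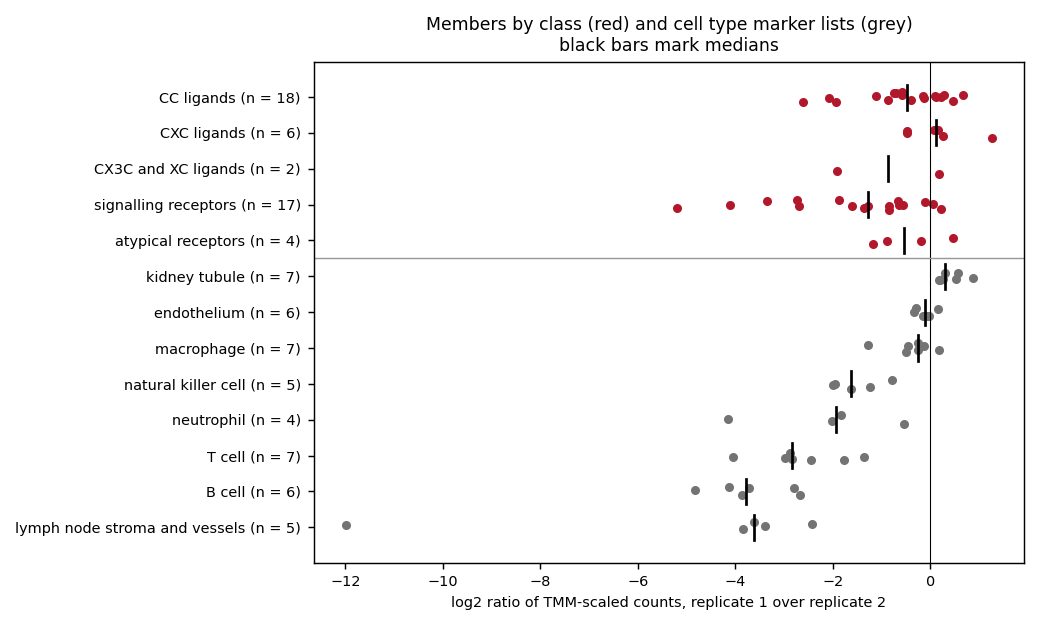
Log2 ratio of TMM-scaled counts, replicate 1 over replicate 2, with 1 dot per gene and a black bar for the median, for the 5 classes of the family (red, upper rows) and 8 lists of cell markers (grey, lower rows). Signalling receptors reach as far left as T cell and B cell markers, and of the 6 CXC ligands Cxcl1 lies apart, at 1.27.

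Genes that act with the family were then read from 4 lists. Of 29 genes of chemokine signal transduction, 24 were detected, led by the G protein subunit genes Gnb2 (541 TPM in replicate 1 and 429 in replicate 2), Gng5 (496 and 402) and Gnb1 (356 and 264). In that list 5 genes (all genes tested, 5.62%) were lower in replicate 1 and none was higher, and the edgeR exact test kept Rac2, Dock2 and Rgs1 and not Vav1 or Pik3r5. Rac2, a small GTPase of blood cells, had 7.61 TPM in replicate 1 and 23.7 in replicate 2, 3.51-fold lower on counts. Dock2, an activator of Rac in lymphocytes, was 3.07-fold lower, and Pik3r5, a subunit of a phosphoinositide 3-kinase, 2.39-fold lower. Vav1, an exchange factor of blood cells, had 0.82 TPM in replicate 1 and 2.28 in replicate 2. Rgs1, which ends G protein signals in B cells, had no count in replicate 1 and 20 in replicate 2. All 5 are known mainly from blood cells, and the part of lymphocyte content in them was not tested either.

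Inducers of chemokine genes were present as receptors and transcription factors, with little cytokine mRNA. Of 20 such genes 10 were detected, led by Tnfrsf1a, a receptor of tumour necrosis factor (84.3 TPM in replicate 1 and 65.4 in replicate 2), Irf3 (77.0 and 64.3) and Rela (37.3 and 32.6). None of the 10 cytokine genes in the list reached 1 TPM in either library, and Il6, Ifnb1 and Il17a had no TPM in either. None of the 12 tested genes was called between libraries.

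All 14 genes of chemokine processing and presentation were detected, and none was called. Sdc4, a heparan sulfate proteoglycan that can hold chemokines at the cell surface, led at 150 TPM in replicate 1 and 140 in replicate 2, followed by Ndst1 (61.8 and 43.9), an enzyme of heparan sulfate, and Tpst2 (32.2 and 24.9), which sulfates tyrosines of receptors. Of 10 chemokine-like genes outside the symbol rule, 9 were detected and none was called. Mif, a cytokine that also binds Cxcr4 and Cxcr2, stood at 3612 TPM in replicate 1 and 2124 in replicate 2, its receptor Cd74 at 410 and 446, and Rarres2, or chemerin, at 56.8 and 47.01.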

How the data were processed

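Per the labels, the 2 libraries were made from polyadenylated RNA over 200 nt after removal of ribosomal RNA, and sequenced as stranded read pairs of 76 nt. Per the records deposited beside the tables, these are on mm10 with annotation M4. Which aligner and quantifier were used is not given in the sources used here. In these tables the authors gave expected counts (estimates that need not be whole), TPM, posterior mean TPM, the SD of each estimate (a signal value of the quantification) and, per the file headers, the percent of each isoform in its gene. Junction and contig tables on mm9 were not used here.

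Symbols, gene types and positions came from GENCODE M21 on GRCm38, with a symbol for 42462 of 43346 gene identifiers (98.0%). Left out of library sizes and tests were 26248 rows with a bare number as identifier, which all read 0, and 97 spike-ins, with 1.59% of counts in replicate 1 and 2.29% in replicate 2.

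Expected counts were rounded for the test between libraries and scaled with TMM in edgeR 4.0.16 under R 4.3.3 (factors 1.03 and 0.974). Adjusted p-values are Benjamini-Hochberg over the 18723 genes with 10 or more counts in sum. Intervals of ratios are 95% exact binomial, cover counting error only, and take fragments as independent, although no molecular identifiers are named. A count was called uncertain where its deposited SD exceeded 10% of it in either library. Other scalings, filters, TPM minimums and tests were tried, with their effect given at the end.

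Named are all genes of the family with a mean of 1 TPM or more, all called, all at 0 counts in both libraries and the 3 highest others of each class. Of each pathway list the 3 highest and all called genes are named, and of each marker list the highest and all called genes. Some genes that this rule would name are not reported here. Other family genes named were chosen after their values were seen. The family, lists, pairs and tests were chosen with earlier results of these data known.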

Additional observations from a re-analysis of the deposited data

How the results depend on the processing

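Detection depended on the level asked for. At a minimum of 2 TPM in both libraries 13 of the 57 genes were detected, against 51.9% of protein-coding genes. With 10 or more counts in both libraries 40 of the 57 were, against 69.6%. By that count level the family was detected about as often as protein-coding genes, and by the TPM levels less often. Replicate 2 alone gave 29 detected genes of the 57 (protein-coding genes, 58.6%) and replicate 1 alone 23 (58.5%). The median level was 1.13 TPM without replicate 1 and 0.7 TPM without replicate 2, 1.29 TPM when TPM was rescaled to nuclear protein-coding genes (all such genes 4.05) and 1.22 TPM over genes with 10 or more counts in sum (7.58). The 5 highest genes held 76.8% without replicate 1, with Ccl5 in place of Cxcl14, and 85.6% without replicate 2.

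Between libraries, 30 genes were called with no minimum ratio, where 57.5% of all genes were, and 8 by the edgeR exact test (2.53%). DESeq2 1.42.0 size factors gave 14 calls (all genes, 8.16%) and library totals 13 (8.24%). Without a filter on low counts 13 were called (7.12%), and spike-in totals gave 11 (15.3%), of which 9 were among the 14. The rescaling to protein-coding genes moved the mean TPM of 22 of 27 named genes by more than 1 SD. It multiplies every gene of a library by the same factor, so relative levels within a library stayed as they were. Posterior mean TPM moved the mean of Ccl25 alone. No paired analysis was possible because there was 1 group. Depth limits the genes with few counts, such as Xcl1, Ccr3 and Ccr6, and the isoform shares of genes with few counts. The causes of these changes were not tested.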
